A study of Mus musculus with 18 samples.

Results

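The genes described here are the ligands, receptors, co-receptors, secreted inhibitors and intracellular regulators of Wnt signalling in mouse liver metastases. Members were the protein-coding rows whose symbol begins with Wnt, Fzd, Sfrp, Dkk, Rspo or Lgr followed by a number, together with Axin1, Axin2, Nkd1, Nkd2, Notum, Apc, Ctnnb1, Lrp5, Lrp6, Rnf43 and Znrf3. This choice used no measured value. It gave 46 members among the 22137 genes of the table of HFD and LFD tumours, and 47 among the 24778 genes of the table of shYap and shCon tumours. Fzd9 was the 1 member present in the second table alone. By role, the 47 members were 15 Wnt ligands, 12 receptors and co-receptors, 5 R-spondins and Lgr receptors, 7 secreted inhibitors and 8 intracellular core components or feedback inhibitors. Members with no row in either table, among them Dkk1, Wnt1, Wnt3 and Wnt3a, are not analysed here.

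The tumours grew from MC38, a mouse colon carcinoma cell line, after injection into the spleen, and total RNA of the collected liver tumour tissue was sequenced. The 4 groups were HFD tumours of wild-type mice on a high-fat diet (n = 5), LFD tumours of wild-type mice on a low-fat diet (n = 5), shYap tumours carrying a hairpin named for Yap in high-fat-fed mice (n = 4) and shCon tumours carrying a control hairpin in high-fat-fed mice (n = 4). The shYap and shCon groups therefore share the high-fat diet, and all groups share wild-type mice and 1 tumour line. The labels give neither the age of the mice nor the number of clones behind each hairpin. Nothing in the labels states that libraries came from separate animals, so p-values cover only the differences seen between the libraries at hand, which may be partly technical.

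Wnt ligands are secreted lipid-modified proteins that bind Frizzled receptors (Fzd) and the co-receptors Lrp5 and Lrp6. Binding stops the destruction complex, which holds Axin and Apc, from degrading beta-catenin (Ctnnb1), and beta-catenin then acts with TCF/LEF factors on target genes. Several of those targets, such as Axin2, Nkd1, Notum, Rnf43, Znrf3 and Lgr5, feed back on the pathway. In healthy liver, Wnt signals from endothelial cells of the central vein maintain the perivenous hepatocyte programme, and in intestinal epithelium and many colon carcinomas the same pathway drives proliferation.

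Promoters of members were read to see whether the best known feedback targets carry the TCF/LEF core near their start. RefSeq windows on GRCm38.p6, which run from 250 bases before to 50 bases after an annotated start, were found for 28 of the 47 members, as 33 windows in all. Among the feedback targets named above, Axin2, Nkd1 and Rnf43 had windows, whereas Notum, Lgr5 and Znrf3 had none and could not be read. The letters CTTTGAT or CTTTGAA, on either strand, stood in 2 of these 33 windows (6.06%), against 2842 of 32851 windows of all genes (8.65%). The 2 windows belonged to the ligands Wnt11 and Wnt5b. Shown 5′ to 3′ are the 250 bases before the start of Axin2 (chr11:108920099-108920348, plus strand), Rnf43 (the downstream start, chr11:87699647-87699896, plus strand) and Lgr4 (chr2:109917397-109917646, plus strand), as a feedback target without a detected change and 2 members that differed with diet. They stand beside those of Wnt11 (chr7:98834862-98835111, plus strand) and of the Wnt5b start with a match (chr6:119449387-119449636, minus strand). Capitals mark the 7 letters of the core, which in Wnt11 lie on the opposite strand.
Axin2: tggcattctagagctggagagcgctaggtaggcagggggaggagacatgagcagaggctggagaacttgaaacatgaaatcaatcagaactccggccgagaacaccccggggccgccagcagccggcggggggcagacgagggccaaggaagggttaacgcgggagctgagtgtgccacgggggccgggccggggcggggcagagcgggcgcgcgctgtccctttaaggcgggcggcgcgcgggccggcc
Rnf43: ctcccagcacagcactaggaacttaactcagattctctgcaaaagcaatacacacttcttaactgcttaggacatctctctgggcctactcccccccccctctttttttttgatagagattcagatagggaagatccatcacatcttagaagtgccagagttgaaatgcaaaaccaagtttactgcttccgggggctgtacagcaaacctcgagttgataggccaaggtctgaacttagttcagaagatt
Lgr4: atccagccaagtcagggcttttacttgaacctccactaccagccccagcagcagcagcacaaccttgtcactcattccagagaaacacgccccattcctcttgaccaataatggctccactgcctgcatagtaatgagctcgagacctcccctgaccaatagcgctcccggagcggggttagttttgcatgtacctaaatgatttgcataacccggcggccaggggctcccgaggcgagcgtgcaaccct
Wnt11: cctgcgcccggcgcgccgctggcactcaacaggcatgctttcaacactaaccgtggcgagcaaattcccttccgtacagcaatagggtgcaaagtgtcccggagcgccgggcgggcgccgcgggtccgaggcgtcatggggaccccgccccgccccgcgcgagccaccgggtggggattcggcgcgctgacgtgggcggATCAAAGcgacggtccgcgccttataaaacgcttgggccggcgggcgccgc
Wnt5b: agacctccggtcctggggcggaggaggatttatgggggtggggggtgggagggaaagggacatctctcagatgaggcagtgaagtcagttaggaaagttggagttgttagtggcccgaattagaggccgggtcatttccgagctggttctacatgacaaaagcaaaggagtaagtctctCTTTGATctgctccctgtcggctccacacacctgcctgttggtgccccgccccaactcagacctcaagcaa
The core began 51 bases before the start in Wnt11 and 71 bases before it in Wnt5b. In the Axin2, Rnf43 and Lgr4 windows these letters were absent. Of the 250 bases shown, G and C made up 69.2% in Axin2, 45.2% in Rnf43, 55.6% in Lgr4, 70.8% in Wnt11 and 55.6% in Wnt5b. A match or its absence in so short a window says nothing about binding, and both genes with a match were near the detection limit in these tumours.

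Libraries held 17766207 to 18474191 estimated counts in the table of HFD and LFD tumours and 17207214 to 21309950 in the table of shYap and shCon tumours. Levels are given as CPM (the count of a gene relative to the scaled library total), computed within each table alone, so levels in different tables are set side by side without a test. Hepatocyte markers, a list of 16 genes that includes albumin, summed to 539 to 4620 CPM in HFD tumours and 11200 to 107000 CPM in LFD tumours. In shYap tumours they summed to 14100 to 70000 CPM and in shCon tumours to 11600 to 40300 CPM. Xist, a transcript of female cells, had 1 to 6 counts per HFD library and 1406 to 2579 counts per LFD library, while shYap and shCon libraries had 0 to 4. Diet and whatever else separates the HFD from the LFD tumours in Xist therefore cannot be told apart. Cholangiocyte and epithelial markers, 14 genes, summed to 1380 to 1650 CPM in HFD and 389 to 1050 CPM in LFD tumours. In shYap tumours they summed to 930 to 1180 CPM and in shCon tumours to 587 to 915 CPM. Of 12 tested between the diets, 3 were higher and 2 lower in HFD tumours at an edgeR adjusted p under 0.05. That is 41.7%, against 41.1% of all genes. Of these markers, Spp1 averaged 1190 CPM in HFD and 312 CPM in LFD tumours. Epcam averaged 1.01 CPM in HFD, 1.05 CPM in LFD, 1.40 CPM in shYap and 1.2 CPM in shCon tumours. Vil1 stayed below the filter in both tables. In bulk tissue, fewer cells of a type and less RNA per cell cannot be told apart.

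Per length, beta-catenin was the most abundant member in all 4 groups. Ctnnb1 stood at 80.5 ± 2.25 CPM per kilobase of annotated exon in HFD tumours, 81.4 ± 3.52 in LFD tumours, 59.9 ± 4.16 in shYap tumours and 59.4 ± 4.29 in shCon tumours (SD, n = 5, 5, 4 and 4). In HFD and shYap tumours the ligand Wnt7b and then the receptor Fzd2 came next, whereas in LFD tumours Fzd2 and Axin1, and in shCon tumours Fzd2 and Dkk2, stood above Wnt7b. In HFD tumours Wnt7b (34.9 ± 2.97 CPM per kilobase) and Fzd2 (29.2 ± 3.03) lay within 2 SD of each other, as did Fzd2 (20.4 ± 7.22), Axin1 (19.3 ± 4.23) and Wnt7b (14 ± 6.41) in LFD tumours. In shYap tumours Wnt7b (29.3 ± 11.7), Fzd2 (21.7 ± 6.45) and Axin1 (20.6 ± 4.17) again overlapped in spread, whereas Fzd2 (28.7 ± 3.36) lay above Dkk2 (19.3 ± 3.66) and Wnt7b (18.9 ± 2.08) in shCon tumours by more than 2 SD. At the other end, 10 members in the HFD and LFD table and 9 in the shYap and shCon table fell below the expression filter, with highest values of 1.95 and 0.65 CPM in any library. These included Fzd3, Fzd10, Sfrp4, Sfrp5, Wnt7a, Wnt8a, Wnt11 and Wnt16 in both tables.

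**Figure D1:**
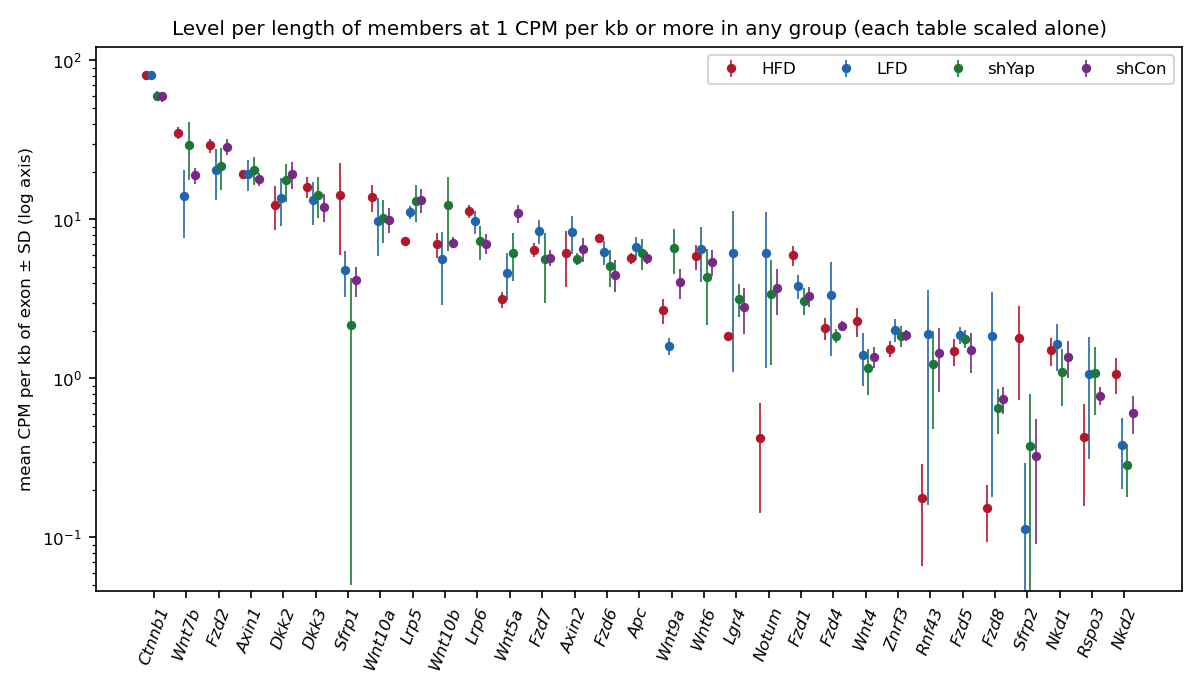
Mean level per kilobase of annotated exon (log axis) with SD for the members that reached 1 CPM per kilobase in any group, in HFD (red), LFD (blue), shYap (green) and shCon (purple) tumours, each table scaled alone. SD bars that reach 0 run off the log axis. Ctnnb1 leads in all 4 groups, and Notum, Rnf43 and Fzd8 are lowest in HFD tumours.

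The first comparison asks how Wnt genes of metastases differ between mice on a high-fat and on a low-fat diet. After the filter, 36 members were tested with edgeR's quasi-likelihood test together with all other genes, and a Benjamini-Hochberg adjusted p under 0.05 was called. Of these 36, 6 members were higher in HFD tumours (Wnt7b, Wnt9a, Fzd1, Sfrp1, Sfrp2 and Nkd2) and 8 were lower (Lrp5, Fzd7, Fzd8, Lgr4, Lgr5, Notum, Rnf43 and Znrf3), while 22 did not pass. That is 38.9% of the tested members, against 41.1% of all 16340 genes tested (19.4% higher and 21.6% lower). The share of members that differed was thus close to that of genes in general. The median log2 fold change was -0.15 over the members and -0.00 over all genes. Of the 36 tested members, 5 were higher and 7 lower in HFD tumours with no overlap between HFD and LFD libraries. Over all genes tested that share was 30.6% (15.8% higher and 14.8% lower), so the members were again close to genes in general. DESeq2 called 7 members higher and 9 lower, against 44.7% of all genes. Of the 14 calls, 10 (Wnt7b, Wnt9a, Fzd1, Sfrp2, Nkd2, Lrp5, Fzd8, Lgr5, Notum and Rnf43) passed in all 18 alternative fits, whereas Sfrp1 passed in 17, Lgr4 in 16, Fzd7 in 12 and Znrf3 in 8 of the 18.

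**Figure D2:**
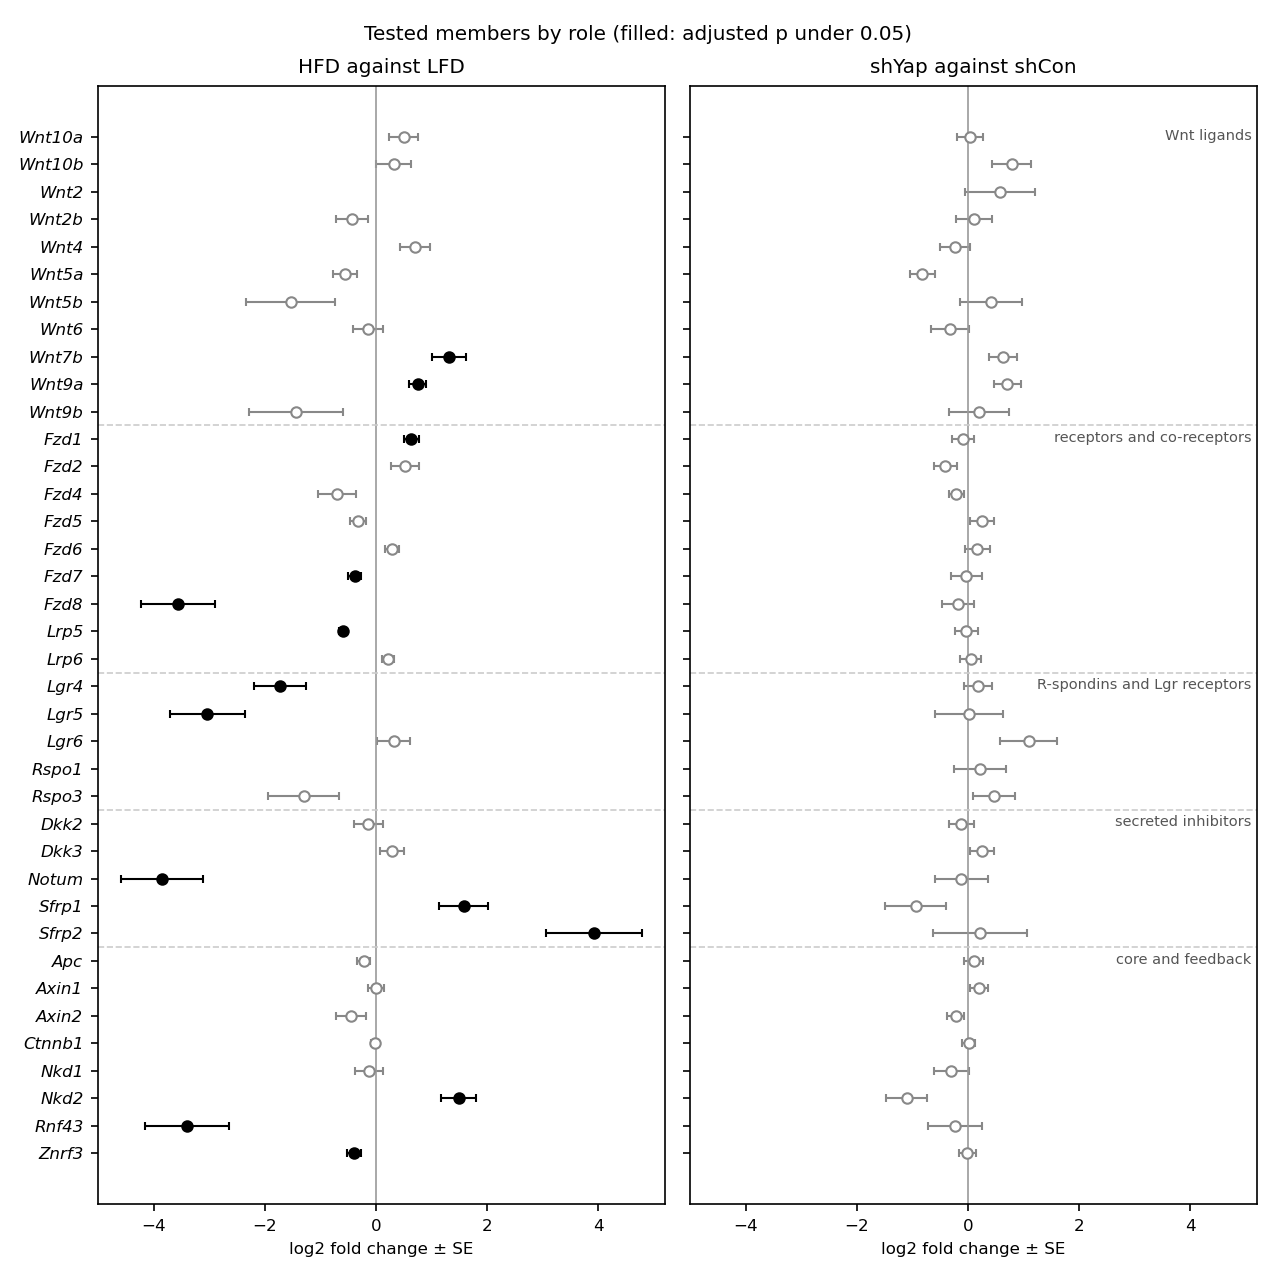
Log2 fold change with SE for each tested member, grouped by role, for HFD against LFD (left) and shYap against shCon (right). Filled points have an adjusted p under 0.05 in edgeR. There are 14 filled points on the left, between -3.85 for Notum and 3.93 for Sfrp2, and 0 on the right.

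Among the 10 tested ligands, 2 were higher in HFD tumours and 0 lower. Wnt7b (chr15:85535437-85582473, minus strand), a ligand of epithelia that mainly signals through beta-catenin, had 182, 170, 188, 158 and 155 CPM in HFD tumours 1 to 5, against 28.4, 85.0, 43.2, 104 and 82.1 CPM in LFD tumours 1 to 5. Each HFD tumour lay above each LFD tumour, and the LFD values were the more scattered. Wnt7b averaged 171 ± 14.6 CPM in HFD tumours and 68.5 ± 31.4 CPM in LFD tumours (SD, n = 5 each). Its log2 fold change was 1.32 ± 0.31 (SE, edgeR adjusted p = 0.00756). AU022754, a gene whose exons overlap those of Wnt7b on the opposite strand, had 3.37 to 6.14 CPM in HFD tumours and 0.617 to 2.11 CPM in LFD tumours. No source used here gives the strand of the libraries, so reads of overlapping genes cannot be separated. Those levels are small beside Wnt7b.

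Wnt9a (chr11:59306928-59333552, plus strand), a ligand known from liver endothelium, had 7.91, 7.26, 9.20, 11.4 and 8.94 CPM in HFD tumours, against 4.73, 5.90, 5.82, 4.50 and 5.61 CPM in LFD tumours. Those groups did not overlap either, and Wnt9a was 1.68-fold higher in HFD tumours (log2 fold change 0.75 ± 0.15, edgeR adjusted p = 0.00352). Summed markers of liver endothelium ran from 715 to 909 CPM in HFD and 695 to 1410 CPM in LFD tumours, with 1 of 19 markers higher and 8 lower in HFD tumours (47.4% called). Most of that sum came from Stab1 (means of 427 CPM in HFD and 395 CPM in LFD tumours) and Mrc1 (175 and 266 CPM). Clec4f, counted among the lower markers, is also on the list of Kupffer cell markers, so the list is not purely endothelial. The part of endothelial cells in the Wnt9a value was not tested.

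The other 8 tested ligands did not pass. Wnt4 averaged 9.64 ± 1.99 CPM in HFD and 5.92 ± 2.17 CPM in LFD tumours, with a log2 fold change of 0.71 ± 0.27 (edgeR adjusted p = 0.0547). Wnt5a, the main ligand of beta-catenin-independent signalling, averaged 24.6 ± 2.96 CPM in HFD and 36.2 ± 11.6 CPM in LFD tumours, with a log2 fold change of -0.56 ± 0.22 (edgeR adjusted p = 0.0695). Both were close to the threshold, and both passed in DESeq2 (adjusted p = 0.0446 for Wnt4 and 0.0334 for Wnt5a). Wnt4 also passed in edgeR without HFD tumour 5 (0.0364) or LFD tumour 5 (0.0194), in limma voom (0.0347), with upper-quartile factors (0.0256) and without a filter (0.0477). Wnt5a passed as well without LFD tumour 5 (edgeR adjusted p = 0.00167), whose 17.8 CPM was the lowest LFD value. Wnt10a and Wnt10b, paralogous ligands that act through beta-catenin, had log2 fold changes of 0.50 and 0.32, and Wnt9b and the untested Wnt2, ligands of perivenous endothelium, stayed under 3 CPM in each HFD and LFD library.

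Of the 9 tested receptors and co-receptors, 1 was higher and 3 were lower in HFD tumours. Lrp5 (chr19:3584828-3686564, minus strand), a co-receptor that hands the signal to Axin, had 74.8, 71.8, 71.3, 68.0 and 71.2 CPM in HFD tumours, against 101, 117, 95.0, 115 and 114 CPM in LFD tumours. The values within each diet were tight and the groups stood apart. Lrp5 was lower in HFD tumours with a log2 fold change of -0.60 ± 0.07 (edgeR adjusted p = 0.000367), the smallest p of any member, and it stayed between -0.64 and -0.52 in all 18 alternative fits. Lrp6, the paralogous co-receptor, averaged 155 ± 14.3 CPM in HFD and 133 ± 21.3 CPM in LFD tumours and did not pass (log2 fold change 0.22 ± 0.11, edgeR adjusted p = 0.145). It did pass without LFD tumour 5 (0.33, adjusted p = 0.0167) and with upper-quartile scaling (0.31, adjusted p = 0.0439).

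Fzd1 (chr5:4753839-4758035, minus strand), a Wnt receptor of the Frizzled family, had 22.6, 31.4, 24.3, 22.4 and 24.8 CPM in HFD tumours, against 19.7, 16.0, 16.2, 12 and 16.3 CPM in LFD tumours. No value overlapped, and the log2 fold change was 0.64 ± 0.14 (edgeR adjusted p = 0.00519). Fzd8, a receptor of the same family, had 1.14, 1.41, 0.754, 0.502 and 0.781 CPM in HFD tumours, against 14.1, 2.28, 7.29, 4.44 and 26.9 CPM in LFD tumours. Its log2 fold change was -3.56 ± 0.66 (edgeR adjusted p = 0.00265), and the LFD values ranged widely, with tumours 5 and 1 highest. Without LFD tumour 5 it was -2.90 and still passed. Fzd7, a receptor of stem and progenitor cells in the intestine, had 30.1, 27.3, 31.9, 31.5 and 25.3 CPM in HFD tumours, against 39.9, 35.1, 33.7, 33.1 and 49.0 CPM in LFD tumours. The groups did not overlap, but the log2 fold change of -0.38 ± 0.12 (edgeR adjusted p = 0.0282) was a fragile call. Its adjusted p was 0.0521 without HFD tumour 1, 0.0672 without HFD tumour 2, 0.0722 without HFD tumour 5, 0.0598 without LFD tumour 1 and 0.084 with the closest HFD libraries summed. Without LFD tumour 5 the log2 fold change of Fzd7 was -0.26 and still passed. The remaining receptors Fzd2, Fzd4, Fzd5 and Fzd6 had log2 fold changes of 0.52, -0.70, -0.32 and 0.29 and did not pass. Each of Fzd2, Fzd4 and Fzd6 passed in 1 of the fits that left out a library: Fzd2 without LFD tumour 5 (adjusted p = 0.0439), Fzd4 without LFD tumour 2 (0.0461) and Fzd6 without LFD tumour 4 (0.0385).

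R-spondins are secreted agonists that bind Lgr4, Lgr5 and Lgr6 and so keep the ubiquitin ligases Rnf43 and Znrf3 from removing Frizzled receptors. Of 4 genes tested in this group, the receptors Lgr4 and Lgr5 were lower in HFD tumours and 0 were higher. Lgr5 (chr10:115450311-115587780, minus strand), a stem cell marker of the intestine that perivenous hepatocytes also express, had 0.647, 0.857, 0.553, 0.955 and 0.732 CPM in HFD tumours, against 10.8, 1.19, 3.05, 2.20 and 14 CPM in LFD tumours. Lgr4 (chr2:109917647-110014257, plus strand), the more widely expressed receptor, had 11.1, 12, 10.6, 10.4 and 10.8 CPM in HFD tumours, against 42.7, 14.8, 23.6, 15.1 and 86.0 CPM in LFD tumours. HFD tumours were nearly uniform for both genes, and LFD tumours 1 and 5 were far above LFD tumours 2 and 4. The log2 fold changes were -3.03 ± 0.67 for Lgr5 (edgeR adjusted p = 0.00581) and -1.73 ± 0.47 for Lgr4 (edgeR adjusted p = 0.016). Without LFD tumour 5 the log2 fold change was -2.48 for Lgr5 and -1.11 for Lgr4, both still past the threshold, and in limma voom that of Lgr5 was -2.32. For Lgr4, with the closest HFD libraries summed its adjusted p was 0.0787. Rspo3, the R-spondin of the central vein, averaged 1.31 ± 0.827 CPM in HFD and 3.29 ± 2.32 CPM in LFD tumours (log2 fold change -1.30 ± 0.64, edgeR adjusted p = 0.127), and Lgr6 did not pass either (0.32, adjusted p = 0.415).

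Secreted inhibitors went both ways, with 2 higher and 1 lower in HFD tumours among 5 tested. Notum (chr11:120653788-120661175, minus strand), an enzyme that removes the lipid of Wnt proteins and is itself a Wnt target, had 1.24, 1.87, 0.302, 0.352 and 1.32 CPM in HFD tumours, against 23.0, 3.26, 10.2, 6.07 and 31.4 CPM in LFD tumours. It averaged 1.02 ± 0.674 CPM in HFD and 14.8 ± 12 CPM in LFD tumours (SD, n = 5 each). Its log2 fold change of -3.85 ± 0.74 (edgeR adjusted p = 0.00318) was the most negative among the tested members, and the groups did not overlap. Its antisense neighbour Notumos had at most 0.454 CPM in HFD tumours and 0.621 to 3.41 CPM in LFD tumours.

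The inhibitors that rose were Sfrp1 and Sfrp2, secreted frizzled-related proteins, which bind Wnt ligands outside the cell and are typical products of fibroblasts. Of the same family, Sfrp4 and Sfrp5 were below the filter, with means of 0.0601 and 0.11 CPM in HFD tumours and 0.295 and 0.0163 CPM in LFD tumours. Without the filter Sfrp4 was lower in HFD tumours (log2 fold change -2.17, edgeR adjusted p = 0.0222). Sfrp1 (chr8:23411502-23449632, plus strand) had 50.6, 93.2, 20.2, 41.4 and 107 CPM in HFD tumours, against 25.2, 25.0, 26.6, 15.7 and 11.9 CPM in LFD tumours. HFD tumour 3 lay inside the LFD range, and the log2 fold change was 1.58 ± 0.44 (edgeR adjusted p = 0.0168). Sfrp2 (chr3:83766321-83774316, plus strand) had 2.24, 5.80, 1.41, 3.22 and 6.74 CPM in HFD tumours, against 0.206, 0, 0.925, 0 and 0.0813 CPM in LFD tumours, a log2 fold change of 3.93 ± 0.86 (edgeR adjusted p = 0.00568), or 5.81 without LFD tumour 3. For both genes HFD tumours 2 and 5 were highest and HFD tumour 3 lowest. Summed markers of stellate cells and fibroblasts ran from 6800 to 9000 CPM in HFD tumours and from 3250 to 5900 CPM in LFD tumours. Most of that sum came from Col3a1 (means of 5030 CPM in HFD and 2660 CPM in LFD tumours). Of 20 such markers, 6 were higher and 2 lower in HFD tumours (40% called, against 41.1% of all genes). The lower ones were Ngfr and Colec11, with log2 fold changes of -2.43 and -1.86. The part of stellate cells and fibroblasts in the Sfrp values was not tested. Dkk2 and Dkk3, secreted proteins of the Dickkopf family, did not pass, with log2 fold changes of -0.14 ± 0.26 and 0.29 ± 0.22 (edgeR adjusted p = 0.702 and 0.302).

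**Figure D3:**
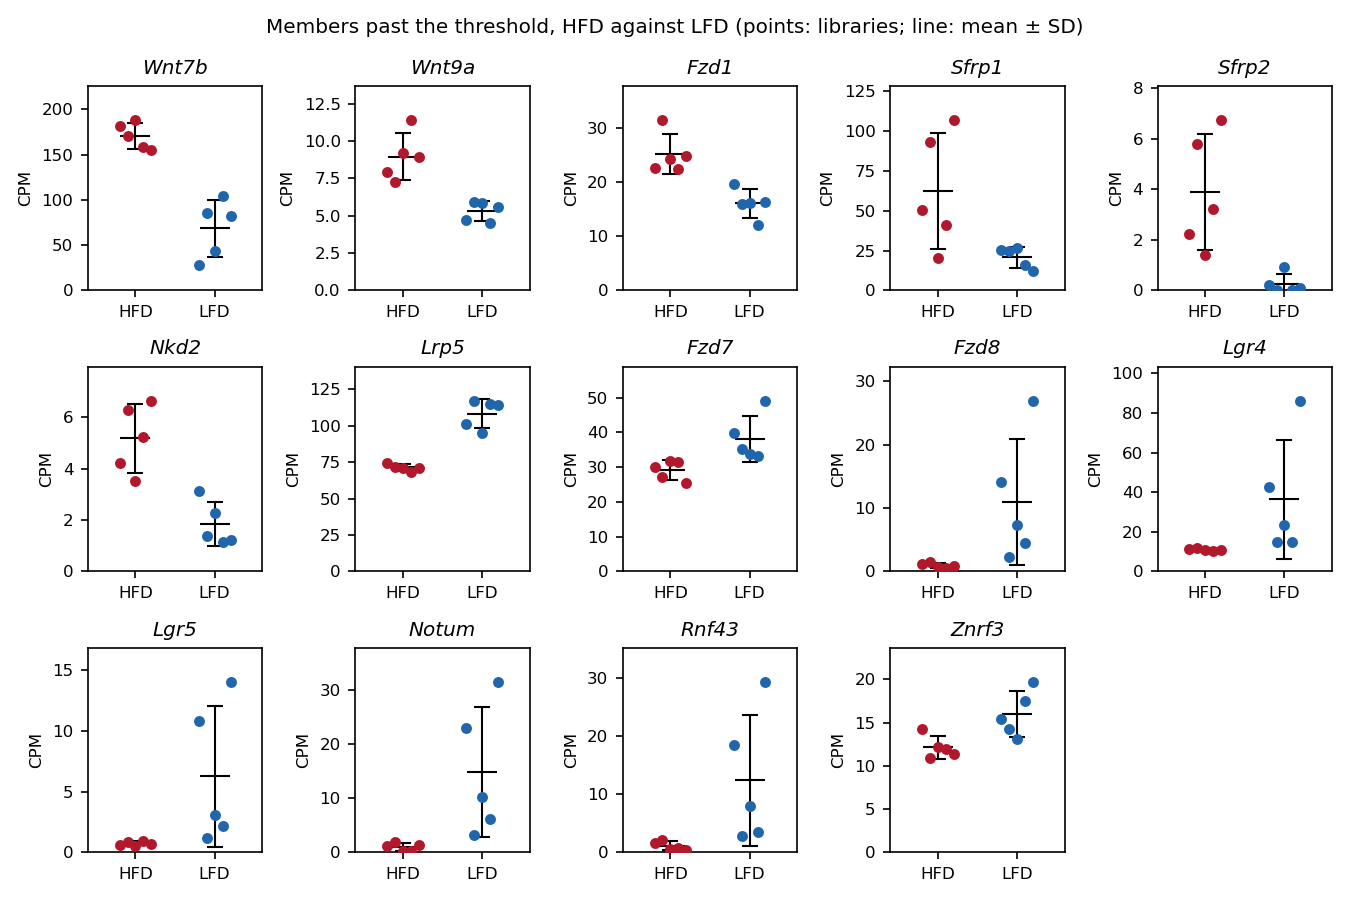
CPM of each library (points) with mean and SD (black) for the 14 members with an adjusted p under 0.05, HFD (red) left of LFD (blue), each panel with its own axis from 0. The groups overlap only for Sfrp1 and Znrf3. Fzd8, Lgr4, Lgr5, Notum and Rnf43 are low in HFD and spread over a wide range in LFD tumours.

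Ctnnb1, Axin1 and Apc did not pass the threshold between the diets. Ctnnb1 had 414, 439, 415, 413 and 410 CPM in HFD tumours, against 414, 439, 430, 435 and 395 CPM in LFD tumours (log2 fold change -0.02 ± 0.06, edgeR adjusted p = 0.864). Axin1, the scaffold of the destruction complex, had 79.4, 69.1, 75.0, 73.1 and 74.3 CPM in HFD tumours, against 58.3, 90.9, 73.3, 90.0 and 57.9 CPM in LFD tumours (log2 fold change 0.00 ± 0.14, edgeR adjusted p = 0.993). Apc, its partner and a gene often mutated in human colon carcinoma, had 90.7, 97.2, 94.4, 99.4 and 80.4 CPM in HFD tumours, against 89.6, 118, 106, 132 and 90.7 CPM in LFD tumours (log2 fold change -0.22 ± 0.12, edgeR adjusted p = 0.163). For Ctnnb1 and Axin1 the sign changed with the scaling and with the filter, and for Axin1 also in DESeq2 and without single libraries.

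Of the 6 feedback targets named at the outset, Notum, Lgr5, Rnf43 and Znrf3 were lower in HFD tumours, 0 were higher, and Axin2 and Nkd1 did not pass. Over all genes tested, 41.1% were called, 19.4% higher and 21.6% lower. Nkd2, the paralogue of Nkd1 and not among these 6, was higher. Axin2 (chr11:108920349-108950783, plus strand), the most general readout of beta-catenin activity, had 25.8, 22.7, 51.7, 43.5 and 25.2 CPM in HFD tumours, against 55.6, 43.4, 59.6, 41.0 and 29.2 CPM in LFD tumours. The groups overlapped, with HFD tumours 3 and 4 among the LFD values, and the log2 fold change was -0.44 ± 0.27 (edgeR adjusted p = 0.218). Nkd1, an inhibitor that binds Dishevelled, had 5.57, 7.46, 8.35, 7.64 and 5.18 CPM in HFD tumours, against 8.91, 7.50, 7.07, 3.76 and 10.3 CPM in LFD tumours (log2 fold change -0.13 ± 0.25, edgeR adjusted p = 0.704).

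Rnf43 (chr11:87662722-87735539, plus strand) had 1.69, 2.17, 0.654, 0.804 and 0.488 CPM in HFD tumours, against 18.4, 2.85, 8, 3.45 and 29.3 CPM in LFD tumours. Its log2 fold change was -3.40 ± 0.75 (edgeR adjusted p = 0.00583), or -2.79 without LFD tumour 5, and the groups did not overlap. Znrf3, the paralogous ligase, had 14.3, 10.9, 12.2, 12 and 11.4 CPM in HFD tumours, against 15.4, 14.3, 13.1, 17.5 and 19.7 CPM in LFD tumours. HFD tumour 1 lay within the LFD range, and the log2 fold change of -0.39 ± 0.13 (edgeR adjusted p = 0.0319) held in only 8 of 18 alternative fits. The adjusted p was 0.0782, 0.0654, 0.0654 and 0.0759 without HFD tumour 2, 3, 4 or 5, and 0.0523, 0.063 and 0.0615 without LFD tumour 1, 4 or 5. It was 0.0534 with upper-quartile scaling and 0.0849 with the closest HFD libraries summed. Nkd2 (chr13:73818534-73847631, minus strand) had 4.23, 6.30, 3.52, 5.22 and 6.64 CPM in HFD tumours, against 3.15, 1.40, 2.29, 1.15 and 1.22 CPM in LFD tumours. The groups did not overlap, and Nkd2 was higher in HFD tumours with a log2 fold change of 1.49 ± 0.31 (edgeR adjusted p = 0.00443).

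The members with the largest falls varied between LFD tumours in the same order as the hepatocyte markers. The hepatocyte marker sum was 60700, 11200, 24200, 15500 and 107000 CPM in LFD tumours 1 to 5, so its order from high to low was tumours 5, 1, 3, 4 and 2. Notum, Rnf43, Lgr5, Fzd8 and Lgr4 each had that order over these 5 tumours. So did Fzd4 and Wnt5b, which were not called, and Wnt2, which was below the filter. The share of all genes with that order was not counted. In HFD tumours 1 to 5 the sum was 3970, 4620, 539, 622 and 936 CPM, with none of the 16 markers at 0 in any library. Notum, Rnf43, Lgr5, Fzd8 and Lgr4 did not have the order of that sum over the HFD tumours. All of them except Lgr5 were highest in HFD tumour 2, as was the sum. All 16 hepatocyte markers were lower in HFD tumours, with a median log2 fold change of -4.60. Of 15 genes that perivenous hepatocytes express under Wnt control, 14 were lower and 1, Nt5e, was not called, and their median was -4.07 on the log2 scale. Glul, the glutamine synthetase of that list, averaged 118 ± 8.60 CPM in HFD and 612 ± 405 CPM in LFD tumours (log2 fold change -2.38 ± 0.42, edgeR adjusted p = 0.00219). The hepatocyte part in the values of Notum, Rnf43, Lgr5, Fzd8 and Lgr4 was not tested. Lrp5 and Axin2 did not share that order, and Lrp5 in LFD tumours 2 and 4 was as high as in tumour 5.

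**Figure D4:**
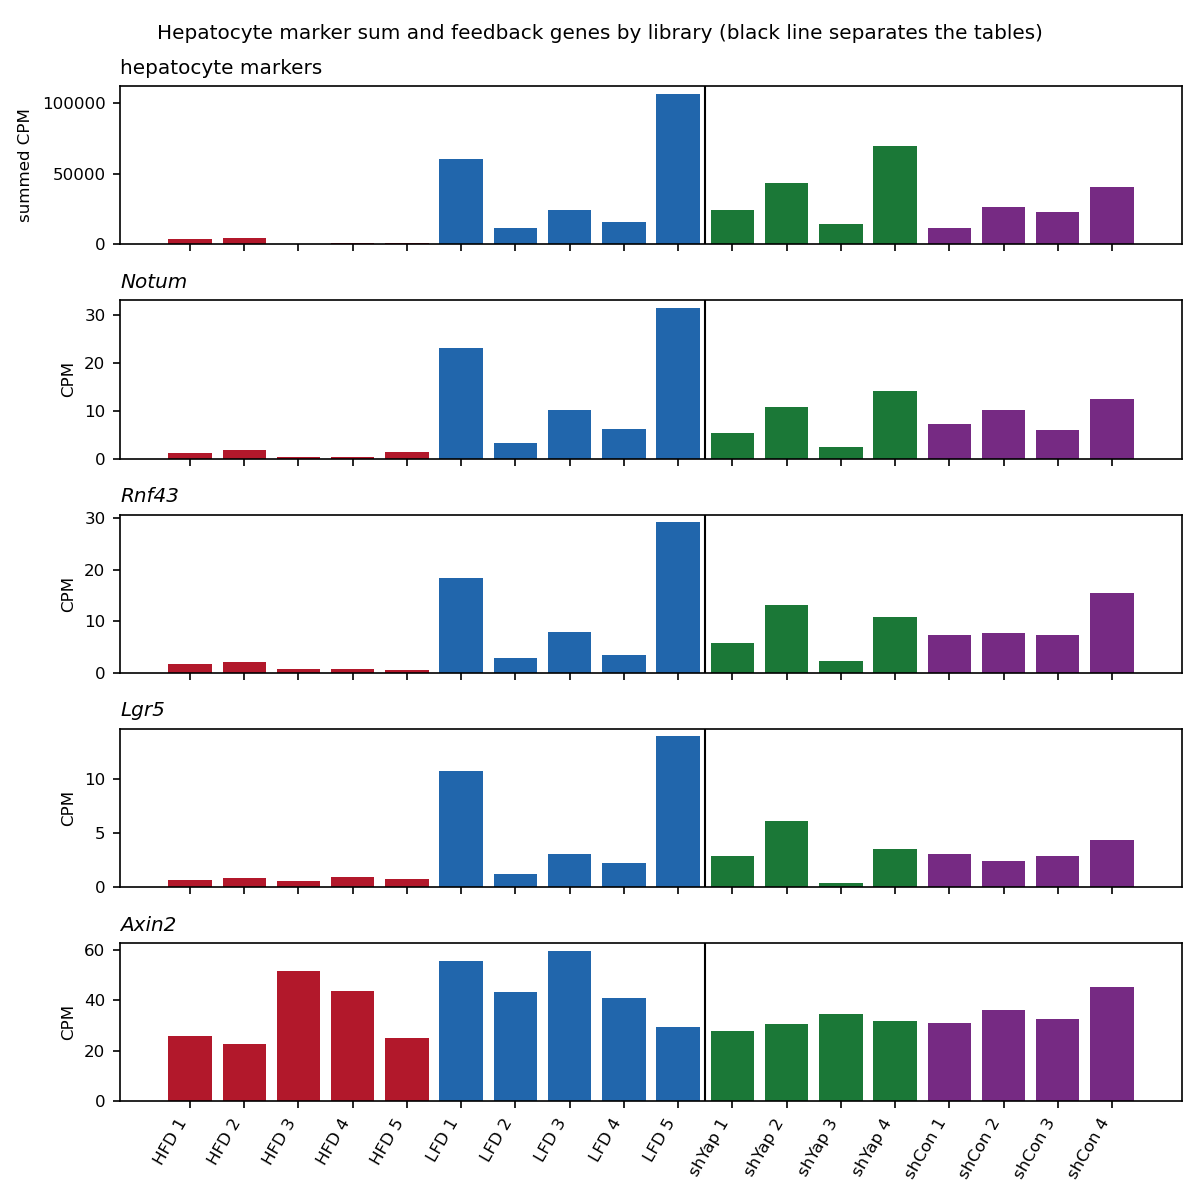
Summed CPM of 16 hepatocyte markers (top) and CPM of Notum, Rnf43, Lgr5 and Axin2 in each library, HFD (red) and LFD (blue) left of the black line, shYap (green) and shCon (purple) right of it. LFD tumours 5, 1 and 3 lead for the marker sum, Notum, Rnf43 and Lgr5 alike, whereas Axin2 has a different order and overlaps between the diets.

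Genes that surround the members in the pathway were counted from lists chosen with earlier results of these data known, so the counts describe and do not test a theme. They stand beside the 41.1% of all genes that were called, 19.4% higher and 21.6% lower. Both genes of Wnt secretion were higher in HFD tumours. Wls, the carrier that brings Wnt proteins to the cell surface, averaged 342 ± 29.1 CPM in HFD and 214 ± 50.6 CPM in LFD tumours (log2 fold change 0.68 ± 0.16, edgeR adjusted p = 0.00792). Porcn, the enzyme that attaches their lipid, averaged 10.1 ± 1.14 CPM in HFD and 6.60 ± 1.40 CPM in LFD tumours (0.61 ± 0.16, adjusted p = 0.0106). Of 8 tested secreted or membrane modulators outside the member families, most but not all of them antagonists, 3 were higher and 0 lower (37.5% called). Apcdd1, a membrane inhibitor of Wnt signalling, averaged 223 ± 41.2 CPM in HFD and 51.5 ± 19.0 CPM in LFD tumours (log2 fold change 2.11 ± 0.23, edgeR adjusted p = 0.000239), and Tpbg and Cthrc1 had log2 fold changes of 1.23 and 3.48. Of 8 agonists and co-factors, 1 was higher and 2 lower (37.5% called). Adgra2, a co-activator of Wnt7 signalling with Reck, averaged 160 ± 9.43 CPM in HFD and 88.2 ± 21.4 CPM in LFD tumours (0.86 ± 0.15, adjusted p = 0.002), while Tspan12 and Sulf2 were lower (-3.78 and -0.79).

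Inside the cell, 9 of 22 tested genes of the destruction complex and its scaffold were higher and 2 lower in HFD tumours (50% called), with a median log2 fold change of 0.19. The kinase gene Csnk1a1 (0.51 ± 0.08), Dvl1, which encodes Dishevelled (0.62 ± 0.10), and Csnk1g3 (0.79 ± 0.15) were among those higher, and Dact2, which averaged 0.331 CPM in HFD and 8.48 CPM in LFD tumours, was lower (-4.64 ± 0.86). Of 18 nuclear factors, 3 were higher and 2 lower (27.8% called). Lef1, the TCF/LEF factor that is itself a Wnt target and is also expressed by lymphocytes, averaged 0.759 ± 0.0743 CPM in HFD and 4.73 ± 2.33 CPM in LFD tumours (log2 fold change -2.64 ± 0.36, edgeR adjusted p = 6e-04). All 12 tested lymphocyte markers were lower in HFD tumours, with sums of 31.4 to 75.2 CPM in HFD and 95.9 to 255 CPM in LFD tumours, and their part in the Lef1 value was not tested. Jup, the close relative of beta-catenin in cell junctions, was higher (0.81 ± 0.12, adjusted p = 0.000764), and so was Bcl9l, a co-activator of beta-catenin (0.41 ± 0.08, adjusted p = 0.00372). Of 16 general target genes, 5 were higher and 3 lower (50% called). Sox9 (0.92 ± 0.16), Cd44 (0.64 ± 0.13) and Mmp7 (3.14 ± 0.67) were among those higher. Mmp7 averaged only 0.898 CPM in HFD and 0.0956 CPM in LFD tumours. The lower ones were Lef1, Prox1 (-2.99 ± 0.82) and Bmp4 (-0.65 ± 0.20). Of 11 receptors, co-receptors and planar polarity genes of beta-catenin-independent signalling, 2 were higher (Ryk, 0.20, and Ror2, 0.70) and 4 lower (54.5% called). The lower ones were led by Celsr1 (-2.57 ± 0.39) and the planar polarity gene Prickle2 (-1.36 ± 0.27).

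The second comparison asks what a hairpin against Yap changes in metastases of high-fat-fed mice. The targeted gene was not detectably lower: Yap1 had 71.5, 79.9, 81.3 and 70.4 CPM in the libraries labelled shYap, against 78.0, 82.3, 73.7 and 77.3 CPM in those labelled shCon (log2 fold change -0.04 ± 0.11, edgeR adjusted p = 0.937). Directions below are therefore those of the libraries labelled shYap. Host cells in the tissue also express Yap1, and the labels do not say in which cells the hairpin acts. In edgeR 0 of 38 tested members passed, as did 0 of all 16571 genes (0.0%). At an unadjusted p under 0.05, 3 members were higher and 2 lower, against 4.76% and 6.13% of all genes. The median log2 fold change was 0.03 over the members and 0.03 over all genes. DESeq2 called 1 member, Wnt5a, and 410 of 16241 genes (2.52%). Without shCon tumour 4 edgeR called 94 genes and without shYap tumour 4 it called 1, with 0 members in both cases.

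Wnt5a (chr14:28504750-28527448, plus strand) had the smallest p of the members. It had 36.1, 45.2, 72.1 and 40.2 CPM in the libraries labelled shYap, against 95.9, 83, 90.9 and 71.0 CPM in shCon tumours. Only shYap tumour 3 reached the range of the shCon tumours. It averaged 48.4 ± 16.2 CPM in shYap and 85.2 ± 10.8 CPM in shCon tumours (SD, n = 4 each). Its log2 fold change was -0.82 ± 0.22 (unadjusted p = 0.00414 and edgeR adjusted p = 0.212, against a DESeq2 adjusted p of 0.0419). Gm2670, which overlaps Wnt5a on the opposite strand, had 0.303 to 0.963 CPM in shYap and 0.857 to 1.35 CPM in shCon tumours. Summed fibroblast and stellate cell markers ran from 3250 to 5870 CPM in shYap and from 5350 to 6140 CPM in shCon tumours, and their part in the Wnt5a value was not tested.

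Wnt7b, Wnt9a and Wnt10b, also ligands, had higher means in the libraries labelled shYap without passing the adjusted threshold. Wnt7b had 213, 168, 94.7 and 98.0 CPM in shYap tumours, against 87.3, 84.3, 91.2 and 107 CPM in shCon tumours (log2 fold change 0.63 ± 0.26, edgeR adjusted p = 0.419). The difference rested on shYap tumours 1 and 2, and the other shYap values lay within the shCon range. Wnt9a had 20.3, 24.5, 30.0 and 13.6 CPM in shYap tumours, against 17, 10.8, 14.5 and 11.5 CPM in shCon tumours (0.71 ± 0.25, edgeR adjusted p = 0.346). Wnt10b had 65.2, 37.6, 49.8 and 16.0 CPM in shYap tumours, against 23.9, 22.5, 27.1 and 23.7 CPM in shCon tumours (0.79 ± 0.35, edgeR adjusted p = 0.458), and shYap tumour 4 was below each shCon tumour.

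Among the inhibitors, Nkd2 had 1.62, 1.71, 0.623 and 1.52 CPM in shYap tumours, against 2.95, 3.33, 3.65 and 1.84 CPM in shCon tumours (log2 fold change -1.10 ± 0.37, edgeR adjusted p = 0.324). It was the 1 tested member whose groups did not overlap, against 6.57% of all genes (2.61% higher and 3.96% lower). Sfrp1 had 4.05, 6.81, 3.85 and 23.1 CPM in shYap tumours, against 19.5, 21.3, 19.4 and 12.5 CPM in shCon tumours (-0.94 ± 0.55, edgeR adjusted p = 0.607), and shYap tumour 4 was above each shCon tumour. Notum had 5.27, 10.8, 2.49 and 14.1 CPM in shYap tumours, against 7.20, 10.2, 5.87 and 12.3 CPM in shCon tumours (-0.12 ± 0.48, edgeR adjusted p = 0.958). Below the filter, Wnt11 had 0.253, 0.252, 0.227 and 0.0543 CPM in shYap tumours and 0.650, 0.381, 0.647 and 0.629 CPM in shCon tumours, at most 14 counts per library.

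**Figure D5:**
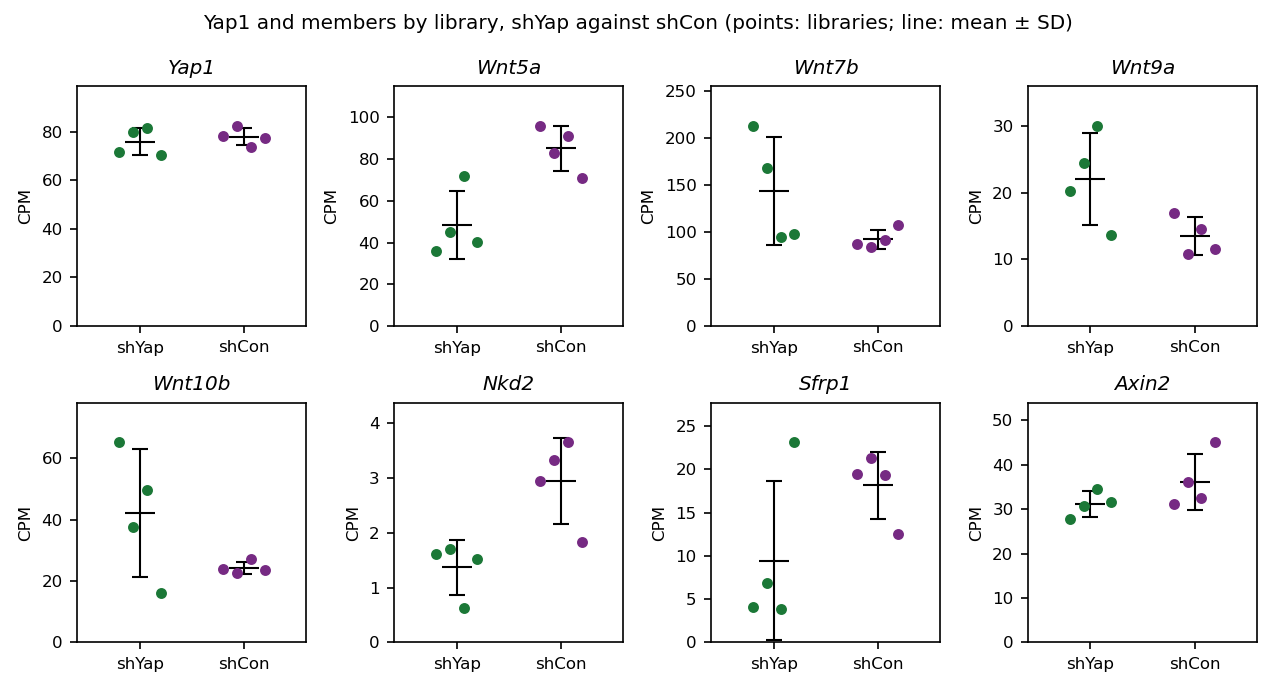
CPM of each library (points) with mean and SD (black) for Yap1 and 7 members, shYap (green) left of shCon (purple), each panel with its own axis from 0. Yap1 and Axin2 overlap between the groups, Nkd2 does not, and the shYap values of Wnt7b, Wnt10b and Sfrp1 are widely scattered. None of these genes passed the adjusted threshold in edgeR.

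The feedback genes showed no call under the hairpin either. Axin2 had 27.7, 30.7, 34.6 and 31.6 CPM in shYap tumours, against 31.1, 36.0, 32.5 and 45.0 CPM in shCon tumours (log2 fold change -0.22 ± 0.15, edgeR adjusted p = 0.676). Rnf43 had 5.82, 13.2, 2.32 and 10.8 CPM in shYap tumours, against 7.25, 7.67, 7.39 and 15.6 CPM in shCon tumours (-0.23 ± 0.49, edgeR adjusted p = 0.915). Lgr5 had 2.89, 6.10, 0.340 and 3.53 CPM in shYap tumours, against 3.10, 2.38, 2.87 and 4.35 CPM in shCon tumours (0.02 ± 0.61, edgeR adjusted p = 0.994). For Notum, Rnf43 and Lgr5 alike, shYap tumour 3 was lowest, and its hepatocyte marker sum of 14100 CPM was the lowest of the shYap tumours. The highest sum was in shYap tumour 4 (70000 CPM), where Notum was highest, whereas Rnf43 and Lgr5 were highest in shYap tumour 2. In shCon tumours the sum was lowest in tumour 1 (11600 CPM), as was Rnf43, whereas Notum was lowest in tumour 3 and Lgr5 in tumour 2. The hepatocyte part in these values was not tested. Nkd1 had 4.40, 6.76, 2.55 and 6.41 CPM in shYap tumours, against 5.05, 8.43, 4.99 and 6.29 CPM in shCon tumours (-0.30 ± 0.32, edgeR adjusted p = 0.81). Znrf3 had 14.6, 15.0, 17.3 and 11.7 CPM in shYap tumours, against 16.1, 13.2, 14.4 and 15.2 CPM in shCon tumours (-0.01 ± 0.16, edgeR adjusted p = 0.992).

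Ctnnb1 had 326, 333, 299 and 288 CPM in shYap tumours, against 323, 276, 321 and 316 CPM in shCon tumours (log2 fold change 0.01 ± 0.12, edgeR adjusted p = 0.981). Apc had 102, 105, 122 and 69.2 CPM in shYap tumours, against 92.2, 82.1, 98.0 and 98.6 CPM in shCon tumours (0.10 ± 0.17, edgeR adjusted p = 0.887). Axin1 had 92.2, 80.2, 86.3 and 55.9 CPM in shYap tumours, against 66.8, 65.9, 64.3 and 77.5 CPM in shCon tumours (0.20 ± 0.16, edgeR adjusted p = 0.736). For Apc and Axin1, 3 shYap tumours were above all 4 shCon tumours and shYap tumour 4 was below all of them. Lrp5 had 79.3, 134, 153 and 141 CPM in shYap tumours, against 113, 126, 117 and 162 CPM in shCon tumours (-0.03 ± 0.21, edgeR adjusted p = 0.975). Lrp6 had 94.0, 99.5, 132 and 74.5 CPM in shYap tumours, against 102, 76.5, 99.2 and 108 CPM in shCon tumours (0.05 ± 0.19, edgeR adjusted p = 0.953).

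By role, the medians of the log2 fold changes in the libraries labelled shYap were 0.20 over 11 ligands, -0.03 over 9 receptors, 0.21 over 5 R-spondins and Lgr receptors, -0.12 over 5 secreted inhibitors and -0.11 over 8 core and feedback genes. In each of the further pathway lists 0 genes were called in edgeR. Some list genes had unadjusted p under 0.05, among them Prickle1, a planar polarity protein, which averaged 22.0 ± 11.2 CPM in shYap and 9.20 ± 2.12 CPM in shCon tumours (log2 fold change 1.26 ± 0.33, edgeR adjusted p = 0.208). Others were Jup, which averaged 103 ± 6.79 CPM in shYap and 138 ± 9.84 CPM in shCon tumours (log2 fold change -0.42 ± 0.11, edgeR adjusted p = 0.21), and Lef1, with 1.28 ± 0.647 CPM in shYap and 3.64 ± 1.46 CPM in shCon tumours (-1.51 ± 0.45, edgeR adjusted p = 0.27). Lymphocyte markers, of which 8 of 13 were lower at unadjusted p under 0.05 and 0 were called, summed to 87.9 to 275 CPM in shYap and 181 to 211 CPM in shCon tumours, and their part in the Lef1 value was not tested. Sox9 averaged 69.8 ± 14.6 CPM in shYap and 46.5 ± 0.787 CPM in shCon tumours (0.59 ± 0.15, edgeR adjusted p = 0.208), and Apcdd1 averaged 53.0 ± 27.1 CPM in shYap and 123 ± 24.9 CPM in shCon tumours (-1.21 ± 0.36, edgeR adjusted p = 0.284). None of these passed the adjusted threshold.

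HFD and shCon tumours both grew in high-fat-fed mice, but stand in tables scaled alone, so their levels are given without a test. Wnt5a averaged 24.6 ± 2.96 CPM in HFD tumours and 85.2 ± 10.8 CPM in shCon tumours, and Wnt7b 171 ± 14.6 CPM in HFD and 92.5 ± 10.2 CPM in shCon tumours. Notum averaged 1.02 ± 0.674 CPM in HFD and 8.91 ± 2.92 CPM in shCon tumours, and Sfrp1 62.4 ± 36.3 CPM in HFD and 18.2 ± 3.90 CPM in shCon tumours. Rnf43 averaged 1.16 ± 0.73 CPM in HFD and 9.47 ± 4.07 CPM in shCon tumours. Lgr5 averaged 0.749 ± 0.16 CPM in HFD and 3.18 ± 0.84 CPM in shCon tumours, and Fzd8 0.919 ± 0.358 and 4.4 ± 0.844 CPM. These members were picked after their values were seen. The hepatocyte marker sum was 539 to 4620 CPM in HFD and 11600 to 40300 CPM in shCon tumours. The hepatocyte part in these values was not tested.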

How the data were processed

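Values in both tables are estimated counts per gene, as the authors deposited them, and 59.7% (HFD and LFD table) and 61.8% (shYap and shCon table) of the values are whole. STAR 2.7.3a, Partek and DESeq2 and the builds GRCm38 and mm10 are the tools and builds named per the submitters' processing notes, which state no role for them. Library strand and counting annotation are not given there. In the HFD and LFD table no gene had a mean below 1 count, so rare genes had been removed before deposit. Positions and exon lengths (the union over all transcripts) come from GENCODE M21 on GRCm38, which matched all 47 members, and promoter sequences from RefSeq. Exons of 10 members overlap another gene.

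Estimated counts were rounded to whole numbers. Within each table, a robust quasi-likelihood model was fitted in edgeR 4.0.16 (R 4.3.3) with TMM factors, filterByExpr at a minimum count of 10 and no covariate. A gene was called at a Benjamini-Hochberg adjusted p under 0.05 over all genes tested. The denominators of CPM were TMM-scaled library totals, and each SE was derived from the fold change and its F statistic. Alternatives were RLE and upper-quartile factors, DESeq2 1.42.0, limma voom (limma 3.58.1), no filter, a filter at 1 CPM, the replicate number as a block, each library left out, and the closest HFD libraries (1 with 2, 3 with 4) summed. Those pairs differed by a chi-square over degrees of freedom of 6.12 and 5.09, above sampling noise, and were kept as separate samples. The model was also tested on simulated data.

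Values of every library are given for called members with a mean of 1 CPM or more (up to 12 per direction), the feedback genes and the signalling core. Of each further list, up to 4 genes by p are named. Ligands and Sfrp1 in the hairpin comparison, Wnt11, Xist, Ror2, Apcdd1, Prox1, Bmp4 and the other uncalled members given with values were chosen after their values were seen. The members, lists and alternatives were all chosen with earlier results of these data known. Libraries labelled shYap are numbered by their titles.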

Additional observations from a re-analysis of the deposited data

Results flagged for a closer look

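Over 88 groups of 4 or 5 libraries, 1 for each member described and group, 7 held a library that stood apart from its group by Dixon's criterion, and chance alone gives about 1 in 20. Ctnnb1 stood at 439 CPM in HFD tumour 2, against 410 to 415 CPM in the other HFD tumours, and at 276 CPM in shCon tumour 2, against 316 to 323 CPM in the other shCon tumours. Fzd1 had 31.4 CPM in HFD tumour 2 (22.4 to 24.8 CPM in the others) and 9.27 CPM in shYap tumour 1 (13.9 to 14.7 CPM in the others). Rnf43 had 15.6 CPM in shCon tumour 4, against 7.25 to 7.67 CPM in the others of that group. Sfrp1 had 23.1 CPM in shYap tumour 4, against 3.85 to 6.81 CPM in the other shYap tumours. Sfrp2 had 0.925 CPM in LFD tumour 3, against 0 to 0.206 CPM in the other LFD tumours; without that library its log2 fold change in HFD against LFD tumours was 5.81.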

How the results depend on the processing

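For HFD against LFD tumours, RLE and upper-quartile factors, DESeq2, limma voom, no filter and a 1 CPM filter called 6 to 8 members higher and 7 to 10 lower. With the closest HFD libraries summed, which leaves fewer samples, 5 members were lower and 4233 genes were called. Leaving out 1 library gave 6 to 9 members higher, 6 to 9 lower and 5523 to 7253 genes. With the replicate number as a block 5 members were higher, 5 lower and 4929 genes called, and Sfrp1 (adjusted p = 0.0794), Lgr4 (0.0556), Fzd7 (0.0991) and Znrf3 (0.0776) no longer passed. Correlations of same-numbered libraries were 0.315, -0.5, 0.104, 0.304 and -0.272 for the diets and 0.006, -0.052, 0.182 and 0.178 for the hairpins. Only hairpin number 3 exceeded the best correlation with another number (0.182 against -0.069). The correlations gave no general sign of pairing by number, but cannot exclude it, since the spread between libraries of a group can hide it. For shYap against shCon tumours the block called 0 members and 0 genes, DESeq2 called 1 member lower and 410 genes, and leaving out 1 library gave 0 to 94 genes and 0 members.

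Signs changed only in values that were not called. For HFD against LFD tumours Ctnnb1 had 0.06 with upper-quartile factors and 0.00 without a filter, and Axin1 had -0.02 with RLE factors, -0.02 in DESeq2 and -0.00 with the 1 CPM filter. For shYap against shCon tumours Znrf3 had 0.01 without a filter, Ctnnb1 -0.02 with upper-quartile factors, and Lgr5 -0.47 in limma voom and -0.33 with the block. With 1 library left out, the log2 fold change ran from -0.07 to 0.09 for Axin1 and from -0.30 to 0.02 for Nkd1 between the diets. Between the hairpins it ran from -0.02 to 0.06 for Ctnnb1, -0.49 to 0.42 for Lgr5, -0.11 to 0.14 for Lrp5, -0.09 to 0.17 for Lrp6, -0.51 to 0.20 for Notum, -0.58 to 0.11 for Rnf43 and -0.07 to 0.09 for Znrf3. The cause was not tested. Depth limits Sfrp2 (at most 138 counts per library between the diets) and the members below the filter.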
